A study of Homo sapiens with 6 samples.

Results

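Among the genes measured in 6 libraries of the human monocytic line U937, 61 had levels that set groups of libraries apart along a line that differed at least in part from the study's own groups, with libraries of both groups on the high side. They were chosen by a rule on their measured levels, in CPM (a gene's reads divided by the library's total, times 1000000). Side A held 23 genes, whose lowest level in ΔNSPs clones 2 and 3 and Control line 1 was at least 2 CPM and at least 3 times the highest level in ΔNSPs clone 1 and Control lines 2 and 3. Side B held 38 genes, whose lowest level in ΔNSPs clone 1 and Control lines 2 and 3 was at least 2 CPM and at least 3 times the highest level in ΔNSPs clones 2 and 3. Control line 1 took no part in choosing side B. The low libraries of side B were ΔNSPs clones only, and for 4 of its genes the ΔNSPs and Control libraries did not overlap. The rule could take 12375 of the 18798 genes in the table (protein-coding genes off chromosome 8 and other than the ZNF zinc finger genes of chromosome 19), so that side A was 0.186% and side B 0.307% of them. These values chose the members, so the split itself is described here without a test.

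The study compared ΔNSPs cells, 3 independent clones of U937 depleted together of the neutrophil serine proteases CTSG (cathepsin G), ELANE (neutrophil elastase) and PRTN3 (proteinase 3), with Control cells, 3 U937 lines that had received control plasmids. Both groups were genetically modified and grown under geneticin, and total RNA was sequenced. Each ΔNSPs sample is 1 clone and each Control sample 1 line, so a difference between samples can be a difference between clones or lines. The labels give no batch or date.

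U937 cells are an established line from a histiocytic lymphoma, used as a model of immature monocytes. The neutrophil serine proteases are made by myeloid precursors and stored in granules. The members themselves span many functions: APP is the membrane protein from which amyloid beta is cut, CBR1 a carbonyl reductase, ERG a transcription factor of the ETS family, SEMA6B a membrane-bound semaphorin and CYB561 an electron-carrying cytochrome of secretory granules.

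Library totals ran from 12184903 to 13782854 counts in the ΔNSPs clones and from 11476619 to 13543076 in the Control lines, and 3 counts correspond to 0.218 to 0.261 CPM. A listed 0 therefore allows a level of up to that floor, which covers counting error only. CTSG had 138, 110 and 44.1 CPM in ΔNSPs clones 1, 2 and 3, against 1876 to 2768 CPM in the Control lines. ELANE had 42.6, 1.88 and 27.1 CPM in those clones, against 988 to 1332 CPM in the Control lines, and PRTN3 had 0.871, 62.8 and 53.9 CPM, against 533, 150 and 245 CPM in Control lines 1, 2 and 3. The myeloid genes CD33 (57.8 to 77.6 CPM) and SPI1 (117 to 150 CPM) were present in all 6 libraries, whereas CD68 was at most 1.16 CPM. Other myeloid genes differed between libraries. CSF3R had the order of side A at a ratio under 3, with 57.5, 128 and 135 CPM in clones 1, 2 and 3. Control lines 1, 2 and 3 had 114, 70.4 and 80.2 CPM of it. In the same clones ITGB2 had 421, 857 and 1014 CPM, LYZ 97.1, 227 and 160 CPM and CEBPB 82.9, 211 and 170 CPM. CD4 and ITGAM were also lowest in clone 1 among the clones. For ITGB2, LYZ, CEBPB, CD4 and ITGAM, Control line 1 was not the highest Control line. Of 14 listed T and NK cell markers, 6 were measured, and they summed to 4.74 to 12.6 CPM in the ΔNSPs clones and 5.14 to 6.87 CPM in the Control lines. CD2 was at 0 in ΔNSPs clone 2 and Control line 1. Of 15 epithelial, fibroblast and endothelial markers, 9 were measured, and they summed to 61.5 to 76.2 CPM in the ΔNSPs clones and 51.2 to 61.1 CPM in the Control lines, most of it PECAM1. Neither sum followed the split of the members. Within the T and NK list, however, NCAM1 had the order of side B without reaching its ratio of 3. NCAM1 had 10.8, 2.26 and 2.22 CPM in ΔNSPs clones 1, 2 and 3. Control lines 1, 2 and 3 had 3.2, 5.24 and 4.53 CPM of it.

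The 5 genes that stand for the 2 sides were APP, CBR1 and ERG on side A and SEMA6B and CYB561 on side B. In the sentences that follow, values run from clone 1 to clone 3 and then from line 1 to line 3. APP (ENSG00000142192, minus strand of chromosome 21, 25880550 to 26171128) had 0.218, 182 and 192 CPM in the ΔNSPs clones, against 116, 5.76 and 3.14 CPM in the Control lines. These were 3, 2416 and 2339 counts in the ΔNSPs clones, against 1376, 78 and 36 counts in the Control lines, so a gene well read in clones 2 and 3 was next to unread in clone 1. CBR1 (chromosome 21, 36069941 to 36073166, plus strand), which reduces quinones and other carbonyls, had 0, 37.1 and 35.3 CPM in the ΔNSPs clones, against 19, 0.369 and 0.871 CPM in the Control lines. ERG (chromosome 21, 38380027 to 38661780, minus strand), known from blood stem cells and endothelium, had 0, 8.12 and 5.74 CPM in the ΔNSPs clones, against 5.81, 0.0738 and 0.261 CPM in the Control lines. All 3 were absent or nearly so in clone 1, present in clones 2 and 3, and in Control line 1 above clone 1 and below clone 2.

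SEMA6B (chromosome 19, 4542593 to 4559808, minus strand), a ligand of plexins, had 25, 1.20 and 0.903 CPM in the ΔNSPs clones, against 12.4, 32.3 and 35.8 CPM in the Control lines. CYB561 (chromosome 17, 63432304 to 63446378, minus strand), which passes electrons from ascorbate across vesicle membranes, had 24.6, 0 and 0 CPM in the ΔNSPs clones, against 6.32, 13.6 and 17.2 CPM in the Control lines. CYB561 was not read a single time in clones 2 and 3, yet had 339 counts in clone 1 and 75, 184 and 197 counts in Control lines 1, 2 and 3. Control line 1 was below Control lines 2 and 3 for both genes.

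**Figure D1:**
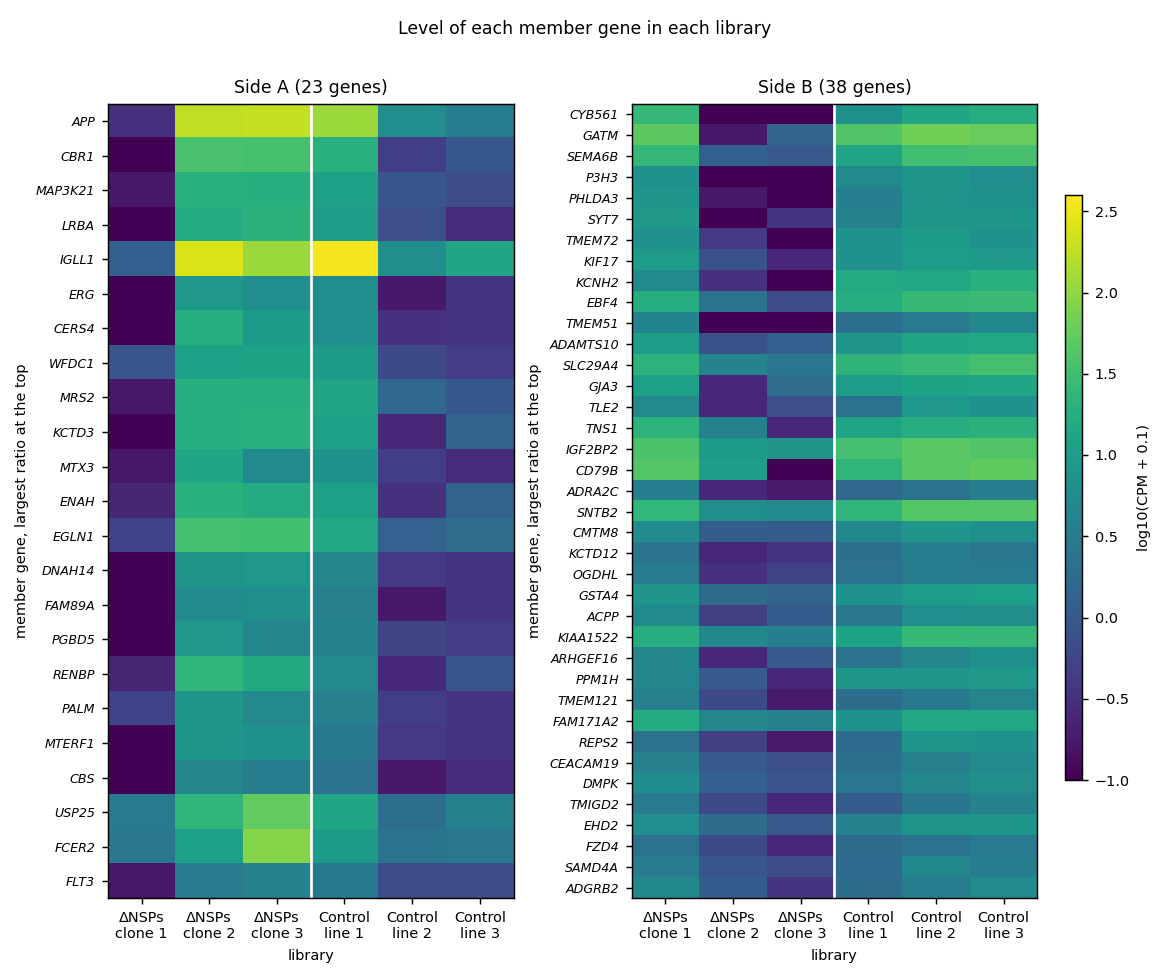
Level of each of the 61 members (rows) in each library (columns), as log10(CPM + 0.1) in colour, side A on the left and side B on the right, with the ΔNSPs clones left of the white line and the Control lines right of it. ΔNSPs clone 1 is dark for side A and bright for side B, clones 2 and 3 are the reverse, and Control line 1 is bright for side A without being dark for side B.

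The promoters of 4 of these 5 genes are shown because the genes were read in some libraries and hardly at all in others. Each runs from 250 bases before to 50 after the RefSeq start of the gene on GRCh38.p14, 5′ to 3′ on the gene's strand. Capitals mark CG, the dinucleotide at which vertebrate DNA is methylated, which reads the same on both strands. SEMA6B is named only.
APP, chr21:26171079-26171378, minus strand: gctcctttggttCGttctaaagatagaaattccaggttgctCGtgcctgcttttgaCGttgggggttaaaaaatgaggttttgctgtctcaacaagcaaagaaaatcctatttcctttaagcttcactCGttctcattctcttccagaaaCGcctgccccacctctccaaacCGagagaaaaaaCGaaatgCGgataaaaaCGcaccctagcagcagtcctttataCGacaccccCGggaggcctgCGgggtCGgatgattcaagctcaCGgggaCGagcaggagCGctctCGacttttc
CBR1, chr21:36069774-36070073, plus strand: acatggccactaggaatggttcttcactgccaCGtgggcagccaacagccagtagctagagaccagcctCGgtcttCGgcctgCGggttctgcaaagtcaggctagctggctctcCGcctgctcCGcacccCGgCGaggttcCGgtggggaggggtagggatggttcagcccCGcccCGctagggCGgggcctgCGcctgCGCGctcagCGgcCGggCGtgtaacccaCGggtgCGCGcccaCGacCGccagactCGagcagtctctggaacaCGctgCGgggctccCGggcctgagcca
ERG, chr21:38660618-38660917, minus strand: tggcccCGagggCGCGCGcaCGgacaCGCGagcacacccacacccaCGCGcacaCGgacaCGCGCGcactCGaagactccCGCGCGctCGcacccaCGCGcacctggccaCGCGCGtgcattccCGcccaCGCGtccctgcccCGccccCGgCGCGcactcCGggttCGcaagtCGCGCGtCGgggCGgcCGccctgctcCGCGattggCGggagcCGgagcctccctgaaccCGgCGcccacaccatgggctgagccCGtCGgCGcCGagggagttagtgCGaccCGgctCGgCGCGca
CYB561, chr17:63446590-63446889, minus strand: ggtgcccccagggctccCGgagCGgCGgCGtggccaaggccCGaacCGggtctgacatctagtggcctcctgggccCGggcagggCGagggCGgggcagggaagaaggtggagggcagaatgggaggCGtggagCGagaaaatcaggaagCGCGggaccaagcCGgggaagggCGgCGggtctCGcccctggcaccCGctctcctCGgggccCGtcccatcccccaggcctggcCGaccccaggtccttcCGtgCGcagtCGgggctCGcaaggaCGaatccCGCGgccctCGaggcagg

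These windows held 17 CG in APP, 27 in CBR1, 53 in ERG and 29 in CYB561. The RefSeq start used for ERG lies 1113 bases from the start of the gene as placed above, and that for CYB561 261 bases. Among the other members the offset was larger in some, up to 33392 bases in DNAH14, 23783 in GATM and 23707 in TNS1. Over all members, RefSeq gave a promoter for 20 of 23 side A genes and 30 of 38 side B genes. The median number of CG was 28 on side A and 32.5 on side B, against 27 over the 9056 genes with a promoter among the 10713 that the rule could take and that reached 2 CPM in a library. The motif was present in 99.7% of the promoters of those genes, so its presence tells nothing about the members. The ratio of observed to base-composition-expected CG was over 0.6 in 85.0% of side A and 86.7% of side B promoters, against 84.1% of all. Promoters poor in CG stood among the members too: 2 CG in IGLL1, 6 in FCER2, 2 in ACPP and 4 in DMPK. DNA methylation itself was not measured.

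The surface proteins and receptors of side A were APP, IGLL1, FCER2 and FLT3. IGLL1, part of the surrogate light chain of the pre-B cell receptor, had 1.09, 253 and 113 CPM in the ΔNSPs clones, against 361, 5.91 and 13.2 CPM in the Control lines. Clone 3, its lowest high library, was far above Control line 3, its highest low one. IGLL1 has close relatives among the immunoglobulin lambda genes and overlaps the antisense gene AP000345.1, and the strand setting is not given, so its count is uncertain. FLT3, the receptor tyrosine kinase of blood progenitors, had 0.0726, 2.93 and 3.86 CPM in the ΔNSPs clones, against 2.78, 0.591 and 0.610 CPM in the Control lines. FCER2, the low-affinity IgE receptor CD23, had 2.68, 10.8 and 86.9 CPM in the ΔNSPs clones, against 9.19, 2.29 and 2.70 CPM in the Control lines, which is the smallest raw ratio between the sides among the side A members. FCER2 was thus above 2 CPM in every library, and the high libraries themselves lay apart, clone 3 standing far above clone 2 and Control line 1.

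Side A had 4 metabolic enzymes, CBR1, CERS4, RENBP and CBS. CERS4, a ceramide synthase, had 0, 17.4 and 9.11 CPM in the ΔNSPs clones, against 5.73, 0.222 and 0.261 CPM in the Control lines. RENBP, an epimerase of amino sugars that also binds renin, had 0.145, 23.1 and 15.3 CPM in the ΔNSPs clones, against 5.22, 0.148 and 0.784 CPM in the Control lines. CBS, which makes cystathionine from homocysteine and serine, had 0, 4.51 and 3.20 CPM in the ΔNSPs clones, against 2.28, 0.0738 and 0.174 CPM in the Control lines. In these 3 genes Control line 1 was the lowest of the high libraries.

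The mitochondrial members were MRS2, MTX3 and MTERF1. MRS2, a magnesium channel of the inner membrane, had 0.0726, 18.1 and 17.7 CPM in the ΔNSPs clones, against 12.7, 1.48 and 0.871 CPM in the Control lines. MTX3, of the metaxin family of the outer membrane, had 0.0726, 12.9 and 5.09 CPM in the ΔNSPs clones, against 6.83, 0.369 and 0.174 CPM in the Control lines. MTERF1, a factor that terminates transcription of mitochondrial DNA, had 0, 8.04 and 6.57 CPM in the ΔNSPs clones, against 2.78, 0.295 and 0.261 CPM in the Control lines. MTERF1 was unread in clone 1, and the other 2 genes had a single count there.

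Signalling and protein modification were represented by MAP3K21, EGLN1 and USP25. EGLN1, the prolyl hydroxylase that marks hypoxia-inducible factor for degradation, had 0.435, 33 and 32 CPM in the ΔNSPs clones, against 14.3, 1.26 and 1.83 CPM in the Control lines. MAP3K21, a mixed lineage kinase, had 0.0726, 19.2 and 18.1 CPM in the ΔNSPs clones, against 11.5, 0.812 and 0.610 CPM in the Control lines. USP25, a deubiquitinase, had 2.83, 22.6 and 54.7 CPM in the ΔNSPs clones, against 13.2, 1.92 and 3.75 CPM in the Control lines. USP25 kept a level of nearly 2 CPM or more in all low libraries, so that it was lower there without being off.

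The cytoskeleton and trafficking group held LRBA, ENAH, DNAH14 and PALM. LRBA, a BEACH domain protein that protects CTLA4 from degradation, had 0, 16.5 and 20.5 CPM in the ΔNSPs clones, against 9.69, 0.665 and 0.174 CPM in the Control lines. ENAH, an actin regulator of the Ena/VASP family, had 0.145, 20.1 and 16.2 CPM in the ΔNSPs clones, against 11, 0.222 and 1.31 CPM in the Control lines. DNAH14, an axonemal dynein heavy chain, had 0, 7.22 and 8.21 CPM in the ΔNSPs clones, against 4.21, 0.295 and 0.261 CPM in the Control lines. LRBA and DNAH14 were unread in clone 1, and ENAH had 2 counts there. PALM, a membrane-anchored protein of plasma membrane dynamics, had 0.435, 7.82 and 4.84 CPM in the ΔNSPs clones, against 3.54, 0.369 and 0.261 CPM in the Control lines. It lies on chromosome 19 near 2 of the targeted genes, with PRTN3 starting 132 kb and ELANE 142 kb downstream of its start. PALM had 6 counts in clone 1.

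Besides ERG, the nuclear members of side A held PGBD5, a domesticated piggyBac transposase, which had 0, 8.27 and 4.27 CPM in the ΔNSPs clones, against 4.04, 0.443 and 0.349 CPM in the Control lines. It was unread in clone 1. WFDC1, a secreted protein with a whey acidic protein domain, had 0.798, 11.4 and 12.1 CPM in the ΔNSPs clones, against 9.10, 0.517 and 0.349 CPM in the Control lines. KCTD3, a BTB domain protein, had 0, 18.6 and 19 CPM in the ΔNSPs clones, against 11.5, 0.148 and 1.31 CPM in the Control lines. FAM89A had 0, 5.34 and 6.16 CPM in the ΔNSPs clones, against 3.62, 0.0738 and 0.261 CPM in the Control lines. WFDC1 was the only one of these 4 genes with more than 10 counts in clone 1, and it was there above Control lines 2 and 3.

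Across side A, clone 1 was the lowest of all 6 libraries in 19 of 23 genes, the exceptions being WFDC1, PALM, USP25 and FCER2. It had fewer than 3 counts in 16 of the 23 and none in 10. Control line 2 had fewer than 3 counts in 5 of the 23 and Control line 3 in 3, and neither was at 0 for any of them. The median level of the 23 genes was 0.0726 CPM in clone 1, 16.5 in clone 2 and 15.3 in clone 3, against 9.10, 0.369 and 0.610 CPM in Control lines 1, 2 and 3.

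On side B, 7 members were surface proteins and receptors. CD79B, the signalling beta chain of the B cell receptor, had 42.8, 10.4 and 0 CPM in the ΔNSPs clones, against 22.5, 47.4 and 52.2 CPM in the Control lines, so that it was unread in clone 3 but well measured in clone 2. FZD4, a receptor of Wnt proteins and Norrin, had 2.18, 0.526 and 0.164 CPM in the ΔNSPs clones, against 1.77, 2.14 and 2.96 CPM in the Control lines. TMIGD2, a costimulatory receptor of T and NK cells, had 2.97, 0.526 and 0.164 CPM in the ΔNSPs clones, against 1.01, 2.44 and 3.92 CPM in the Control lines. In both of these genes Control line 1 was the lowest Control line. The adrenergic receptor ADRA2C had 3.48, 0.150 and 0.0821 CPM in the ΔNSPs clones, against 1.43 to 3.40 CPM in the Control lines. The adhesion receptor ADGRB2 had 4.72, 1.05 and 0.246 CPM in the ΔNSPs clones, against 1.77 to 5.32 CPM in the Control lines. CEACAM19 had 3.63, 0.902 and 0.657 CPM in the ΔNSPs clones, against 1.94 to 4.97 CPM in the Control lines. Control line 1 was again the lowest Control line for these 3 genes.

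The channels and transporters were KCNH2, GJA3, SLC29A4 and CYB561. KCNH2, the cardiac hERG potassium channel, had 4.93, 0.226 and 0 CPM in the ΔNSPs clones, against 15.7, 14.3 and 19 CPM in the Control lines. Here clone 1 was the lowest of the high libraries and Control line 1 stood at the level of the other Control lines. SLC29A4, a transporter of monoamines, had 21.3, 3.91 and 2.46 CPM in the ΔNSPs clones, against 21.5, 27.7 and 34.2 CPM in the Control lines. GJA3, a connexin of the lens, had 10.7, 0.150 and 1.81 CPM in the ΔNSPs clones, against 9.35, 12.1 and 13.5 CPM in the Control lines.

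Side B had 5 members of the cytoskeleton and trafficking group. SYT7, a synaptotagmin that senses calcium in exocytosis, had 8.78, 0 and 0.246 CPM in the ΔNSPs clones, against 3.71, 7.90 and 7.93 CPM in the Control lines. KIF17, a kinesin motor, had 9.21, 0.677 and 0.164 CPM in the ΔNSPs clones, against 6.49, 9.23 and 8.36 CPM in the Control lines. TNS1, a tensin of focal adhesions, had 21.4, 3.76 and 0.164 CPM in the ΔNSPs clones, against 12.6, 17.4 and 20.6 CPM in the Control lines. The syntrophin SNTB2 and the caveolar ATPase EHD2 were lower in clones 2 and 3 without being off. SNTB2 had 24.3, 5.86 and 4.92 CPM in the ΔNSPs clones, against 23.4, 44.5 and 45 CPM in the Control lines. EHD2 had 5.80, 1.80 and 0.903 CPM in the ΔNSPs clones, against 3.79, 7.09 and 7.75 CPM in the Control lines.

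The metabolic enzymes of side B were GATM, OGDHL and GSTA4. GATM, which makes the creatine precursor guanidinoacetate, had 49.9, 0.0752 and 1.40 CPM in the ΔNSPs clones, against 41.4, 67.2 and 57.2 CPM in the Control lines. It was among the best expressed members in the high libraries, with 688 counts in clone 1, and was read a single time in clone 2. OGDHL, a relative of oxoglutarate dehydrogenase, had 2.83, 0.226 and 0.410 CPM in the ΔNSPs clones, against 2.19, 3.25 and 3.05 CPM in the Control lines. GSTA4, a glutathione transferase of lipid peroxidation products, had 7.33, 1.65 and 1.31 CPM in the ΔNSPs clones, against 6.99, 9.30 and 10.5 CPM in the Control lines.

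Among matrix and secreted enzymes, P3H3, of the collagen prolyl hydroxylase family, had 6.60, 0 and 0 CPM in the ΔNSPs clones, against 5.06, 7.09 and 5.75 CPM in the Control lines. ADAMTS10, a secreted metalloprotease of the matrix, had 9.79, 0.677 and 1.15 CPM in the ΔNSPs clones, against 7.33, 13.4 and 14.5 CPM in the Control lines. ACPP, the prostatic acid phosphatase, had 5.08, 0.376 and 1.07 CPM in the ΔNSPs clones, against 2.70, 5.76 and 5.84 CPM in the Control lines. P3H3 was at 0 in both low libraries, as were CYB561 and TMEM51, which had 4.14, 0 and 0 CPM in the ΔNSPs clones, against 1.94, 2.88 and 4.71 CPM in the Control lines.

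The nuclear members of side B were EBF4, of the early B cell factor family, and TLE2, a Groucho corepressor. EBF4 had 17.6, 2.18 and 0.574 CPM in the ΔNSPs clones, against 17, 26.1 and 28.8 CPM in the Control lines. TLE2 had 4.79, 0.150 and 0.657 CPM in the ΔNSPs clones, against 2.11, 8.20 and 6.45 CPM in the Control lines. The RNA-binding members were IGF2BP2 and SAMD4A. IGF2BP2, which binds IGF2 and other messenger RNAs, had 38.2, 8.95 and 7.55 CPM in the ΔNSPs clones, against 33.7, 48.2 and 41.5 CPM in the Control lines, and was thus lower in clones 2 and 3 but far from off. SAMD4A, the relative of the fly repressor Smaug, had 2.90, 0.827 and 0.574 CPM in the ΔNSPs clones, against 1.69, 4.73 and 3.22 CPM in the Control lines.

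Signalling members of side B were PHLDA3, DMPK, PPM1H and ARHGEF16. PHLDA3, a p53 target that restrains AKT, had 7.40, 0.0752 and 0 CPM in the ΔNSPs clones, against 3.37, 7.24 and 6.36 CPM in the Control lines. PPM1H, a phosphatase of Rab proteins, had 4.43, 0.977 and 0.164 CPM in the ΔNSPs clones, against 7.84, 7.75 and 8.54 CPM in the Control lines. It was as high in Control line 1 as in the other Control lines. The kinase DMPK had 5.51, 1.20 and 0.739 CPM in the ΔNSPs clones, against 2.53, 4.43 and 5.93 CPM in the Control lines. ARHGEF16 had 4.50, 0.150 and 0.903 CPM in the ΔNSPs clones, against 2.36, 4.36 and 6.27 CPM in the Control lines. For PHLDA3, DMPK and ARHGEF16, Control line 1 was the lowest Control line.

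The remaining 8 members of side B were TMEM72, TMEM51, TMEM121, KIAA1522, FAM171A2, CMTM8, KCTD12 and REPS2. TMEM72 had 6.46, 0.301 and 0 CPM in the ΔNSPs clones, against 6.66, 8.93 and 7.06 CPM in the Control lines. REPS2, a partner of endocytic proteins, had 2.10, 0.376 and 0.0821 CPM in the ΔNSPs clones, against 1.69, 7.75 and 6.88 CPM in the Control lines, with clone 1 nearer to Control line 1 than to Control lines 2 and 3. FAM171A2 had 16.2, 4.36 and 4.02 CPM in the ΔNSPs clones, against 7.08, 14.7 and 14 CPM in the Control lines. It was above 3 CPM in every library, as was KIAA1522, which had 17.5, 4.66 and 3.45 CPM in the ΔNSPs clones, against 12, 25.3 and 25.2 CPM in the Control lines. KCTD12, an auxiliary subunit of GABA B receptors, had 2.32, 0.150 and 0.246 CPM in the ΔNSPs clones, against 2.02, 3.40 and 2.70 CPM in the Control lines. CMTM8 had 5.44, 1.05 and 1.07 CPM in the ΔNSPs clones, against 4.72, 7.53 and 6.27 CPM in the Control lines. TMEM121 had 3.63, 0.526 and 0.0821 CPM in the ΔNSPs clones, against 1.77, 2.73 and 4.18 CPM in the Control lines. Control line 1 was the lowest Control line for all 3.

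Over side B, clone 2 had fewer than 3 counts in 11 of 38 genes and none in 4, and clone 3 had fewer than 3 counts in 15 and none in 7. The word off thus covers a part of the members, and the others were lower by a ratio of at least 3. The median level of the 38 genes was 6.13 CPM in clone 1, 0.601 in clone 2 and 0.492 in clone 3, against 4.89, 7.83 and 7.41 CPM in Control lines 1, 2 and 3. Members just inside the threshold of 3 had raw ratios of 3.40 (FCER2), 3.53 (USP25) and 4.56 (FLT3) on side A and 3.09 (ADGRB2), 3.22 (EHD2) and 3.22 (FAM171A2) on side B. Genes just outside it had 2.90 (CYP46A1), 2.53 (TRIM71) and 2.42 (HPD) for side A and 2.99 (SPSB1), 2.95 (WDR78) and 2.93 (DAB2IP) for side B. Side A thinned out towards its threshold, whereas the ratios of side B ran on across it.

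Control line 1 matched neither set of libraries. For the side A genes, where the rule asked it only to be high, it was below both clone 2 and clone 3 in 20 of 23 genes, with IGLL1, ERG and MTX3 the exceptions. Among 9876 genes the rule could take that had at least 2 CPM in those 3 libraries, it was below both clones in 36.7%. Its level was, at the median, 58.5% of that in clone 2 and 62.9% of that in clone 3 over the 23 genes, against 98.3% and 101% over the 9876. The rule used Control line 1 for side A, so these values are a description. On a scale from 0 at clone 1 to 100 at clone 2, it had a median position of 58.4%, and Control lines 2 and 3 had 1.64% and 3.25%.

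For side B, which was chosen without Control line 1, its level was above both clones 2 and 3 in 38 of 38 genes. It was also below clone 1, Control line 2 and Control line 3 in 34 of 38, with TMEM72, KCNH2, SLC29A4 and PPM1H the exceptions. Among 10029 genes the rule could take that had at least 2 CPM in those 3 libraries, Control line 1 was below all 3 in 28.3%, and it lay between them and clones 2 and 3 in 8.67%. At the median over the 38 genes it had 66.9% of the level in clone 1, 58.3% of that in Control line 2 and 51.4% of that in Control line 3, against 97.4%, 96.5% and 99.0% over the 10029 genes. Members lie between low and high libraries more easily than other genes, because the rule holds these apart. They were also chosen for being high in clone 1 and Control lines 2 and 3, which favours a lower position for a library left out. The 10029 genes carry no such choice, so neither share (28.3% or 8.67%) is like for like, and the differences were not tested. In 22 of the 38 genes Control line 1 would itself have met the rule for a high library, and in 0 of 38 was it 3 times or more below the lowest high library. The label of these genes as on or off marks of 2 sublines therefore describes the other 5 libraries, which were chosen to show it, but not Control line 1, which had the side A genes at the level that chose them and the side B genes between the high and the low libraries in most cases. In a bulk library, fewer cells with a gene's RNA and less of that RNA per cell cannot be told apart.

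**Figure D2:**
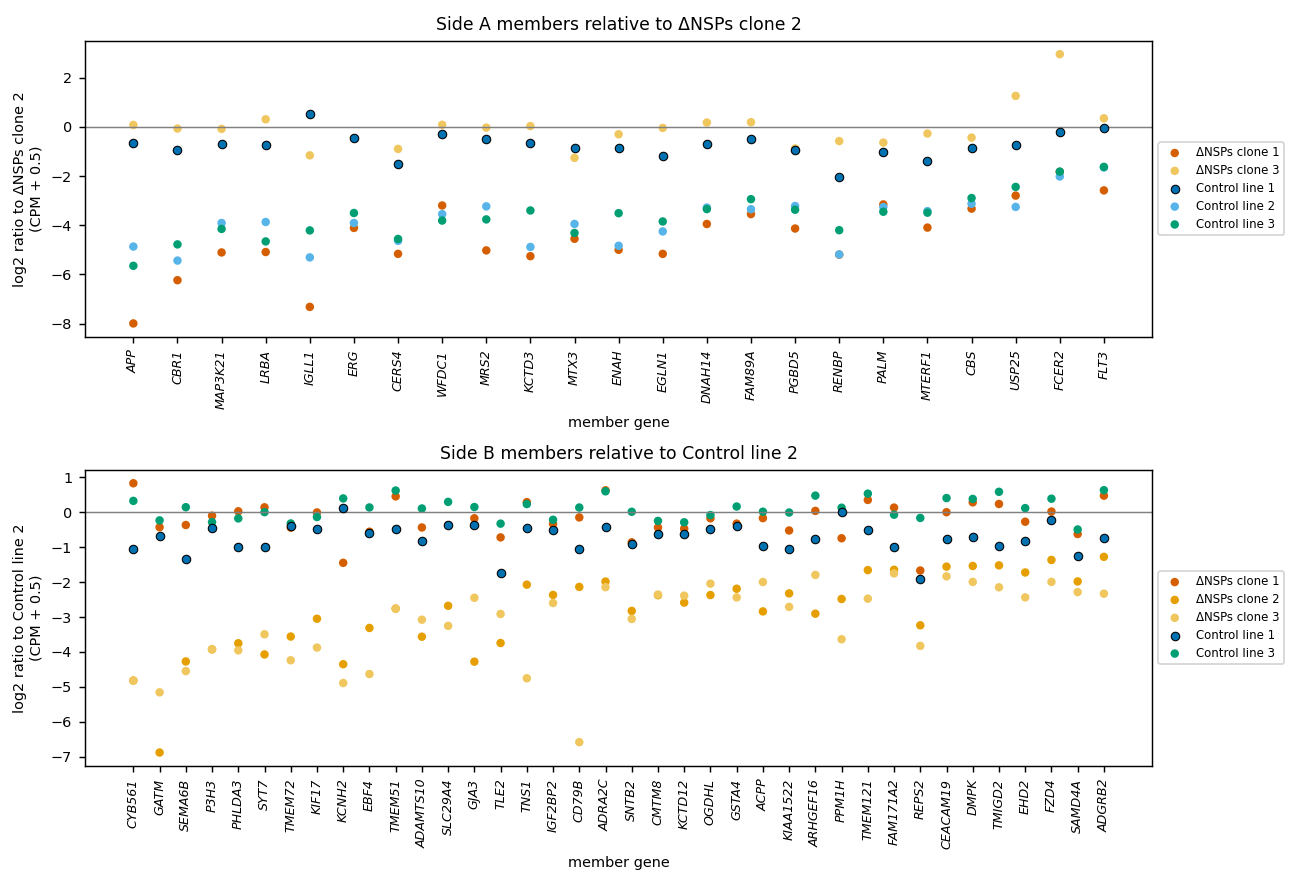
Level of each member in the other libraries relative to ΔNSPs clone 2 (top, side A) or Control line 2 (bottom, side B), as the log2 ratio of CPM + 0.5, with the ΔNSPs clones in orange shades and the Control lines in blue and green. Control line 1 (outlined) lies below clone 2 for all side A members but IGLL1, and between the high and the low libraries for 34 of 38 side B members.

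A choice that used no Control library at all, added after the data were seen, was also described for the Control lines. It asked of the 3 clones alone that clones 2 and 3 be at least 2 CPM and 3 times clone 1, or the reverse. It took 60 genes higher in clones 2 and 3 (0.485% of 12375) and 62 higher in clone 1 (0.501%), all 61 members among them. The members had to be set aside here, because the rule fixed or favoured the order of their Control lines. In the 37 genes of the first set that were not members, Control line 1 was above both Control line 2 and Control line 3 in 28 (75.7%), against 32.1% of the 9960 genes at 2 CPM or more in clones 2 and 3. In the 24 genes of the second set that were not members, it was below both in 15 (62.5%), against 41.7% of the 10279 genes at 2 CPM or more in clone 1. These shares were not tested, and genes left over from a rule on the Control lines are not a random part of each set. On the scale from clone 1 to clone 2, the median positions for the 60 genes were 41.4% for Control line 1, 2.12% for line 2 and 3.44% for line 3. For the 62 genes they were 53.1%, 13.4% and 3.65% in the same order of lines. These sets hold the members, whose Control values were used in part, and PRTN3, a targeted gene. In the 37 genes that were not members, the medians were 24.9%, 4.13% and 4.59%. In the other 24 they were 56.7%, 39.8% and 36.5%, so there Control lines 2 and 3 also stood apart from clone 1.

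**Figure D3:**
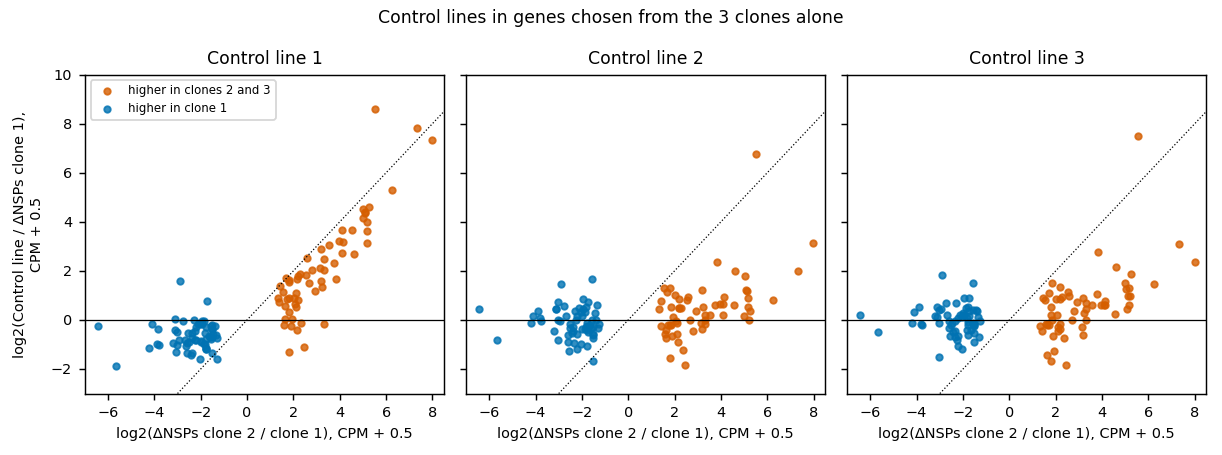
Each point is a gene chosen from the 3 ΔNSPs clones alone, with log2(clone 2 / clone 1) on the x axis and log2(Control line / clone 1) on the y axis, all from CPM + 0.5, and a panel for each Control line. Points on the solid line equal clone 1 and points on the dotted line equal clone 2, and the 60 genes higher in clones 2 and 3 (orange) rise towards the dotted line for Control line 1 while most stay near the solid line for Control lines 2 and 3; the highest point at the left is PRTN3.

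The members lay on many chromosomes, 11 for side A and 17 for side B, with 8 in common. Side A was concentrated in part. Chromosome 21 carried 5 of its 23 genes (21.7%), USP25, APP, CBR1, ERG and CBS, against 1.04% of the 10713 genes that the rule could take and that reached 2 CPM in a library. None of the 38 side B genes was there. Chromosome 1 carried 7 side A genes (30.4%, against 10.9% of those genes), all of them between positions 215567392 and 233385148 of its long arm. They were, in order along the chromosome, KCTD3, DNAH14, ENAH, PGBD5, FAM89A, EGLN1 and MAP3K21, in a span that held 75 of the 10713 genes (0.700%). Side B had 6 genes on chromosome 1, all outside that span, and its largest share on chromosome 19, with 7 genes (18.4%, against 6.39%), TLE2, TMIGD2, SEMA6B, ADAMTS10, CEACAM19, DMPK and EHD2. Chromosome 19 also carried 3 side A genes, PALM, FCER2 and CERS4. These shares describe where the members lie and were not tested.

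The other genes of the 2 dense stretches shifted with the same libraries, by less than the members. In the chromosome 1 span, the 63 genes that were not members and averaged at least 8 CPM had a median of -0.14, 0.35 and 0.27 on the log2 scale in ΔNSPs clones 1, 2 and 3, against 0.03, -0.10 and -0.17 in Control lines 1, 2 and 3, each gene set relative to its own median over the libraries. In the chromosome 21 span from USP25 to CBS, 56 such genes had -0.09, 0.18 and 0.23 in the clones, against 0.04, -0.11 and -0.17 in the Control lines. Over all 8918 genes of that level the medians were within -0.02 to 0.02. The direction was that of the side A members, while the size was a small part of theirs, and the part of these shifts in the members' levels was not tested.

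Some members lay close together. On side A, DNAH14 and ENAH were 87.5 kb apart, FAM89A and EGLN1 324 kb, FCER2 and CERS4 505 kb and PGBD5 and FAM89A 593 kb. On side B, TMIGD2 and SEMA6B were 240 kb apart, CYB561 and CD79B 482 kb and ADGRB2 and KIAA1522 977 kb. Every one of these pairs had at least 1 other expressed gene between its members, up to 18 between ADGRB2 and KIAA1522, and no pair of members were neighbours without such a gene.

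The nearest expressed genes on either side of the members, protein-coding and averaging at least 2 CPM, did not show their pattern in most cases. For a neighbour, the ratio of the lowest high library to the highest low library (CPM + 0.5) was at least 2 in 1 of 46 neighbours on side A and in 1 of 75 on side B. Over the 10359 expressed genes that were not members the share was 0.0676% for the side A split and 0.570% for the side B split. A ratio of at least 1 was found in 11 of 46 neighbours on side A, against 8.62% of those genes. On side B it was found in 17 of 75, against 23.8%. These shares were not tested. The median ratio of the neighbours was 0.911 on side A and 0.871 on side B, against 0.787 and 0.855 over all of these genes. GABPA, 108 kb from APP, had 91.3, 123 and 132 CPM in the ΔNSPs clones, against 105, 91.6 and 79.5 CPM in the Control lines. ETS2, 144 kb from ERG and of the same family, had 54.9, 74.9 and 54.2 CPM in the ΔNSPs clones, against 54.3, 77.2 and 62.9 CPM in the Control lines. LRG1, 2.12 kb from SEMA6B, had 55.2, 46.5 and 87.0 CPM in the ΔNSPs clones, against 46.5, 66.4 and 66.0 CPM in the Control lines. These 3 neighbours were well expressed in every library, also where the member was nearly absent.

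Neighbours with a ratio of at least 2 were few, and some others went along with their member by less. RGL4, 108 kb from IGLL1, had 14.7, 65.2 and 86.7 CPM in the ΔNSPs clones, against 32.4, 9.67 and 10.5 CPM in the Control lines. DMWD, 0.395 kb from DMPK, had 9.58, 4.13 and 3.61 CPM in the ΔNSPs clones, against 5.73, 9.01 and 9.15 CPM in the Control lines. Both were lower in the same libraries as their member. RBBP7, 76.3 kb from REPS2 on the X chromosome, had a ratio of 1.86, with 467, 231 and 219 CPM in the ΔNSPs clones, against 348, 481 and 430 CPM in the Control lines. All 4 expressed genes within 1 Mb of REPS2 went with it, with log2 ratios of 0.942 for SYAP1, 0.895 for RBBP7, 0.678 for TXLNG and 0.419 for SCML1, so that the whole stretch was lower in clones 2 and 3 there, by less than REPS2 itself. TANC2, 4.61 kb from CYB561, had a ratio of 1.67, with 8.92, 4.74 and 4.60 CPM in the ΔNSPs clones, against 8.43, 8.27 and 9.24 CPM in the Control lines. None of these neighbours was near 0 in the low libraries. Among all expressed genes that started within 1 Mb of a member and were not members, the ratio was at least 2 for 1 of 247 genes on side A and 2 of 584 on side B.

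**Figure D4:**
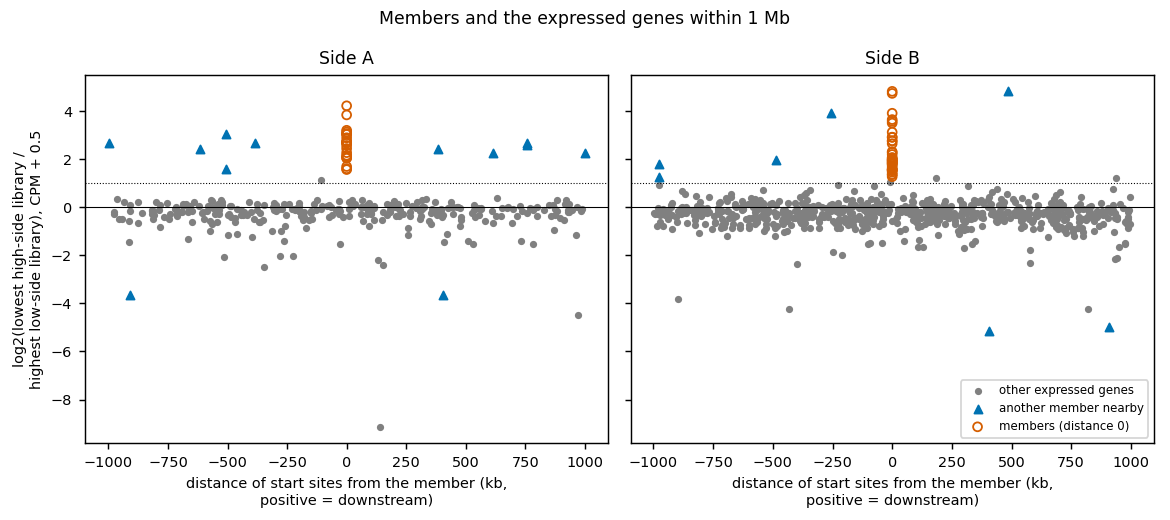
Distance of each expressed gene's start from that of a member within 1 Mb (x axis, kb, positive downstream) and log2 ratio of its lowest high-side library to its highest low-side library (y axis, CPM + 0.5), for side A (left) and side B (right). Members (circles at distance 0) lie above 1, the dotted line of a 2-fold ratio, other genes (grey) mostly lie near or below 0, triangles are other members near by, those under 0 belonging to the opposite side, and the lowest grey point is the targeted gene ELANE near PALM.

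Of 5632 genes that are not protein-coding, 3 met the rule for side A and 2 that for side B. AP000688.1, annotated as lying within a gene and overlapping CBR1, had 0.0726, 20.8 and 20.3 CPM in the ΔNSPs clones, against 11.5, 0.443 and 0.436 CPM in the Control lines. Its reads and those of CBR1 cannot be told apart, nor those of AP000345.1 and IGLL1, since the strand setting is not given. LINC-ROR, a long noncoding RNA on chromosome 18 where no member lies, had 0.0726, 9.02 and 16.7 CPM in the ΔNSPs clones, against 6.74, 0.295 and 0.610 CPM in the Control lines. LINC01226 on chromosome 1, 144 kb from a member of side B, had 4.57, 0.526 and 0.657 CPM in the ΔNSPs clones, against 3.46, 5.83 and 8.80 CPM in the Control lines. Control line 1 was the lowest of the high libraries in LINC-ROR, where the rule asked it to be high. In LINC01226 it lay between the high and the low libraries.

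Relatives of the markers did not show the split to a like degree, but some had the order of a side at a smaller ratio. Among the ETS factors GABPA, whose levels are given above, had that of side A, and the genes named below had that of side B. Of 19 measured ETS family factors, ERG was the only member, and among the other 18 the highest library (CPM + 0.5) was at most 2.02 times the lowest, in ETV7. FLI1, the closest relative of ERG, had 187, 188 and 165 CPM in the ΔNSPs clones, against 188, 198 and 185 CPM in the Control lines. Among 21 measured genes of the APP family, its secretases and its binding proteins, APP was the only member and the next largest span was 5.51 times, in APBA1. APLP2, a paralog of APP, had 895, 893 and 920 CPM in the ΔNSPs clones, against 889, 1448 and 1341 CPM in the Control lines. Among 21 measured carbonyl, aldo-keto and short-chain reductases CBR1 was the only member, among 24 semaphorins, plexins and neuropilins SEMA6B was, and among 15 genes of the cytochrome b561 and b5 families CYB561 was. SEMA6A had the order of side B at a ratio under 3. Its levels were 4.57, 1.73 and 2.05 CPM in the ΔNSPs clones, against 2.36, 3.84 and 3.49 CPM in the Control lines. So did PLXNC1 of the same list, BACE2 and SORL1 of the APP list and DHRSX of the CBR1 list. APP and CBR1 themselves are on side A.

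In the cytochrome b561 and b5 families, CYB5A varied along another line, being at 0 in clone 2 alone, with a span of 27.9 times against 50.2 for CYB561. It had 12.6, 0 and 8.54 CPM in the ΔNSPs clones, against 7.58, 13.4 and 11.8 CPM in the Control lines. CYB5R1 of the same family had the order of side B at a ratio under 3. Its levels were 36.8, 9.77 and 12.4 CPM in the ΔNSPs clones, against 18.8, 29.7 and 29.5 CPM in the Control lines. Of 8 measured B cell markers, IGLL1 was on side A and CD79B on side B. The other 6 summed to 37.3, 41.5 and 35.3 CPM in the ΔNSPs clones, against 30.7, 41.7 and 42.5 CPM in the Control lines. VPREB1, the partner of IGLL1 in the surrogate light chain, had 0.0726, 5.64 and 0.328 CPM in the ΔNSPs clones, against 1.35, 0 and 0 CPM in the Control lines. It was above the floor in the high libraries of side A and under it in the low ones, but did not reach 2 CPM in all of them. FLT3 was the only member among 22 measured monocyte and granulocyte surface markers. No member was among 26 measured haematopoietic transcription factors of a further list, 16 HOX genes and partners, 18 imprinted genes, 7 cancer testis antigens or 9 cadherins and protocadherins. The same held for the measured markers of T and NK cells (6), of erythroid cells and megakaryocytes (8), and of epithelium, fibroblasts and endothelium (9). Some genes of these lists still had the order of side A or of side B at a ratio under 3. NFE2 and RUNX1 were among those with the order of side A, MEIS1 and KLF4 among those with that of side B. NFE2 had 21.9, 77.4 and 69.5 CPM in ΔNSPs clones 1, 2 and 3. Control line 1 had 41.1 CPM of it, and Control lines 2 and 3 at most 25.3 CPM. For RUNX1, Control line 1 (116 CPM) was hardly above clone 1 (114 CPM). MEIS1 had 81.2, 38.1 and 31.4 CPM in the ΔNSPs clones, against 55.1, 89.0 and 87.9 CPM in the Control lines. KLF4 had 6.97, 2.56 and 2.79 CPM in the ΔNSPs clones, against 3.54, 7.46 and 7.23 CPM in the Control lines. Between ΔNSPs and Control, edgeR called 0 of the 187 tested genes of these lists, against 0.0203% of all genes it tested. Of the 187, 36 had an unadjusted p under 0.05, against 17.8% of all genes tested. DESeq2 called 7 genes of these lists, against 3.64% of all genes to which it gave an adjusted p. Nothing is read from these counts. The median log2 fold changes of the lists lay between -0.32 and 0.71, against 0.0023 over all genes tested.

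In the comparison that the study was designed for, ΔNSPs against Control, none of the 61 members passed edgeR's quasi-likelihood test at an adjusted p of 0.05, where 3 of 14797 genes did (0.0203%, with 0.00676% higher and 0.0135% lower). All 61 were tested. Without adjustment, 1 side A gene (FCER2, higher) and 6 side B genes (KCNH2, SLC29A4, SNTB2, GSTA4, PPM1H and REPS2, lower) had a p under 0.05, as 17.8% of all genes did. DESeq2 called 0 members, 6 of which had no adjusted p, and 3.64% of the genes it gave one. The rule used these libraries. For side A it put both groups among the high and among the low libraries. For side B both groups were among the high libraries, but the low libraries were ΔNSPs clones only, so that split ran in part along the groups. The same values chose the members, so nothing is read from these counts. The p-values measure the spread between these clones and lines.

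The averages of the groups hid the split. APP averaged 125 ± 108 CPM in the ΔNSPs clones and 41.6 ± 64.4 CPM in the Control lines (SD, n = 3 each), and edgeR gave a log2 fold change of 1.60 with an SE of 1.59 (adjusted p = 0.623). CBR1 averaged 24.1 ± 20.9 CPM in the ΔNSPs clones and 6.76 ± 10.6 CPM in the Control lines, with 1.85 and an SE of 1.53 (adjusted p = 0.549). ERG averaged 4.62 ± 4.17 CPM in the ΔNSPs clones and 2.05 ± 3.26 CPM in the Control lines, with 1.19 and an SE of 1.44 (adjusted p = 0.690). For these 3 genes the SD of each group was close to its mean or above it, and the groups overlapped.

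SEMA6B averaged 9.05 ± 13.8 CPM in the ΔNSPs clones and 26.8 ± 12.6 CPM in the Control lines, with a log2 fold change of -1.56 and an SE of 1.03 (adjusted p = 0.452). CYB561 averaged 8.20 ± 14.2 CPM in the ΔNSPs clones and 12.4 ± 5.53 CPM in the Control lines, with -0.59 and an SE of 1.41 (adjusted p = 0.854). The log2 fold changes of side A had a median of 1.60 (-0.04 to 2.86, 22 of 23 positive) and those of side B one of -1.24 (-3.22 to -0.54, all 38 negative), against 0.0023 over all genes. That direction follows from the rule, which places 2 of the 3 clones on the high side of A and the low side of B. The groups did not overlap for 0 side A genes, an outcome the rule fixed by putting libraries of both groups on each side. They did not overlap for 4 side B genes, TMEM72, KCNH2, SLC29A4 and PPM1H, against 23.4% of all genes tested. The rule bound side B too, since clone 1 had to be high with Control lines 2 and 3. Neither count is like for like with that share, and nothing is read from them. Of these 4 genes KCNH2 had the strongest difference, a log2 fold change of -3.22 with an SE of 1.00 (adjusted p = 0.190).

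When ΔNSPs clone 1 was left out, 33 members passed the edgeR test, all of them on side B and all lower in the ΔNSPs clones, where 6.17% of 15050 genes passed and 3.13% passed as lower. CYB561 then had a log2 fold change of -10.3 (adjusted p = 0.00783), a fitted value that depends on the prior count since clones 2 and 3 were at 0, and SEMA6B one of -4.63 (adjusted p = 0.00839). With clone 1 gone the clones left are the low libraries of the rule, so these values describe the split and do not test it. The side B members that did not pass were CD79B, TNS1, TMIGD2, SAMD4A and ADGRB2, and no side A member passed.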

How the data were processed

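Gene-level read counts came from 6 U937 libraries, 3 ΔNSPs clones and 3 Control lines, grouped and numbered by the sample labels. The authors deposited unnormalized counts in 1 table. HTSeq 0.11.1, HISAT2 2.0.0, SAMtools 1.5.9, FastQC and the GRCh38.p12 build are named, without roles, per the submitters' processing notes. The sources used here do not give the annotation release, strand setting or filters. Every gene had at least 10 counts over the 6 libraries. Gene names, types and positions came from GENCODE 29 by Ensembl identifier, for 18771 of 18798 genes, and promoters from RefSeq (GRCh38.p14).

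CPM values were counts over column totals. Libraries of a group differed beyond sampling noise (chi-square per degree of freedom at least 7.13). ΔNSPs was compared with Control by edgeR 4.0.16 (R 4.3.3): TMM, filterByExpr, a quasi-likelihood fit and Benjamini-Hochberg adjustment over 14797 genes, two-sided, at an adjusted p of 0.05, with the SE derived from the fold change and its F statistic. DESeq2 1.42.0 was an alternative. The edgeR script was tested on simulated data. Ratios carried a pseudocount of 0.5 CPM unless called raw. The remaining steps used Python 3.11.15, pandas 2.3.3 and numpy 2.4.6.

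Members and gene lists were chosen with earlier results of these data known, and roles were assigned after the members were known. The rule for named genes took the 5 markers, the 10 members a side with the largest ratio, members within 1 Mb of another, members of a list, members past the edgeR threshold, the 3 targets, and the 3 genes on each side of each threshold; other members were added to cover all 61.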

Additional observations from a re-analysis of the deposited data

How the results depend on the processing

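The number of side A genes was 25 and 16 with a minimum of 1 and 5 CPM, 29 and 20 with a ratio of 2 and 5, and 23 with TMM-scaled totals, DESeq2 size factors or counts thinned to the smallest total. Leaving out a library gave 24 to 45 genes, 45 without Control line 1 and 38 without ΔNSPs clone 3, and the choice from the clones alone, added later, gave 60. Side B was less sharply bounded. It held 56 genes with a minimum of 1 CPM, 22 with 5 CPM, 123 with a ratio of 2, 21 with a ratio of 5, and 38 under the 3 other scalings. Leaving out a library gave 39 to 132 genes, 132 without ΔNSPs clone 2, 96 without clone 1 and 91 without clone 3. It held 0 genes with Control line 1 also low, 22 with it also high, and 62 from the clones alone. The cause of these moves was not tested.

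Between ΔNSPs and Control, edgeR called 3 genes, 3 with DESeq2's size factors, 4 without a filter and 0 to 928 without a library each: 928 without clone 1, 20 without Control line 1, 1 without clone 3, and 0 without Control line 2 or 3, where 1408 and 1413 genes had an unadjusted p under 0.05. DESeq2 called 498 genes. Members called were 0 throughout, except 33 without clone 1. No marker turned its direction, but their log2 fold changes moved widely. Leaving out a library gave 1.05 to 4.83 for APP, 1.27 to 5.33 for CBR1, 0.51 to 4.79 for ERG (the highest of each without Control line 1), -4.63 to -1.04 for SEMA6B and -10.3 to -0.01 for CYB561 (the lowest of each without clone 1). CYB561 had no direction to speak of without clone 2 (-0.01, adjusted p = 0.999) or clone 3 (-0.02, adjusted p = 0.996). Deviations of same-numbered clones and lines from their group means correlated at -0.432, -0.161 and -0.14, which gave no sign of pairing by number. Clone 1 and Control line 1 differ from the rest of their groups in opposite directions for side A, so this check cannot exclude pairing. With the number as a block, 0 genes and 0 members were called (1779 genes at an unadjusted p under 0.05). The markers' values were then 3.46 for APP, 3.33 for CBR1, 2.36 for ERG, -2.97 for SEMA6B and -3.60 for CYB561. Depth limits the low side: a count under 3 cannot be told from 0.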

Other observations

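Some genes that the rule leaves out had levels as far apart, along other lines between the libraries. IRF8, a transcription factor of monocytes, dendritic cells and B cells, had 0.943, 49.8 and 2.79 CPM in ΔNSPs clones 1, 2 and 3, against 51.5, 3.18 and 4.71 CPM in Control lines 1, 2 and 3. It was thus high in clone 2 and Control line 1 and low in clone 3, which shares the high side with them for the 23 side A genes. Its highest library (CPM + 0.5) was 36.0 times its lowest, against a median of 1.49 over the protein-coding genes that reached 2 CPM in a library. PAX5, the B cell factor, had 8.56, 7.44 and 1.48 CPM in the ΔNSPs clones, against 8.43, 19.1 and 16.1 CPM in the Control lines, with clone 3 the lowest.

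The receptor CSF1R had 1.02, 4.21 and 2.71 CPM in the ΔNSPs clones, against 1.60, 0.369 and 0.610 CPM in the Control lines, an order of libraries like that of side A at a lower level and with smaller steps. These genes were picked from the listed ones after their values were seen.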
